A study of Rattus norvegicus with 6 samples.

Results

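Genes for epithelial ion and water transport were compared between rat endometrial epithelial organoids (rEEOs) and rat bone marrow mesenchymal stem cells (rBMSCs). They were chosen by symbol, covering aquaporins other than Aqp5, epithelial sodium channel subunits, chloride channels, the sodium pump with its FXYD regulators, calcium pumps, bicarbonate, proton and chloride exchangers and cotransporters, carbonic anhydrases, and potassium, TRP, calcium and sodium channels. A further condition was a sum of at least 10 counts over the 6 libraries. Of the 13728 genes held in the table analysed here, 179 had such a symbol and 135 of these also met the count condition. The lowest sum among the 135 was 10 counts and the highest among the 44 left out was 9 counts.

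Bulk RNA-seq of poly(A)-selected RNA was available for 3 rEEOs samples and 3 rBMSCs samples. The rEEOs were glandular fragments from the uteri of female Sprague-Dawley rats a few weeks old, expanded in Matrigel at low passage in a medium holding B27, N2, insulin-transferrin-selenium, nicotinamide, EGF, FGF10, noggin, A83-01, Y27632, Wnt3a and R-Spondin-1. The rBMSCs were purchased cells that carried a red fluorescent protein label, grown in dishes in DMEM/F12 with fetal bovine serum. The labels name no hormone treatment for either cell type. Cell type, culture format, medium and supplier differed together, so they cannot be told apart. Nothing in the labels says that the samples of a cell type came from separate animals or cultures, so the p-values measure the spread between these samples, which may be technical.

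Epithelia move salt and water with a division of labour between their surfaces. The sodium pump Na+/K+-ATPase lowers cell sodium, and the resulting gradients drive chloride and bicarbonate secretion through channels and exchangers or sodium absorption through the epithelial sodium channel ENaC, with water following, in part through aquaporins. In the uterus these pathways set the volume and pH of the luminal fluid and respond to ovarian steroids. Mesenchymal cells use other members of the same families for cell volume, membrane potential and calcium signalling.

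Over the 13728 genes analysed, libraries held between 10457958 and 15421501 counts. Only part of the expression table was analysed here, with between 81.3% and 82.7% of each library's TPM, so these sums are below the full depth and the shares and family sums below cover the genes held only. TPM (a level corrected for library size and transcript length) is used for levels. Triplets of TPM are for replicates 1, 2 and 3 in that order, and values with ± are the mean and SD over 3 libraries. The labelled cell types were checked by markers. The 9 epithelial markers, led by Krt8, Epcam and Krt18, summed to between 4963 and 5686 TPM in rEEOs and between 2.82 and 3.52 TPM in rBMSCs. The 11 stromal markers summed to between 41240 and 43530 TPM in rBMSCs and between 172 and 298 TPM in rEEOs. In rEEOs nearly all of it was Vim and 7 markers had 3 counts or fewer in every library. In rBMSCs most of it was Col1a1, Col3a1, Vim and Col1a2. Among the others, Nt5e had only 1.14, 0.69 and 1.23 TPM and Dcn 0.43, 0.53 and 0.67 TPM in rBMSCs. The 4 smooth muscle markers held of 6 (mostly Acta2) summed to between 5937 and 6697 TPM in rBMSCs and between 3.48 and 12.2 TPM in rEEOs. Endothelial (4 held of 5) and haematopoietic (4 of 6) markers summed to at most 0.5 TPM in any library, and neuronal and glial ones (3 of 7) to at most 2.33 TPM. Ciliated cell markers (3 of 5) reached between 7.18 and 8.55 TPM in rEEOs and at most 0.55 TPM in rBMSCs.

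Transport genes took a larger part of the rEEOs transcriptome, and the leading member differed between the cell types in most of the families compared. Counts in the 135 genes made up 1.47%, 1.26% and 1.24% of the counts held in rEEOs replicates 1, 2 and 3, compared to 0.396%, 0.382% and 0.373% in rBMSCs. In bulk samples, fewer cells of a type and less RNA per cell cannot be told apart. The sodium pump class carried the largest summed level in each library, between 2934 and 3907 TPM in rEEOs and between 606 and 625 TPM in rBMSCs. A mean above 100 TPM was reached by 11 of the genes in rEEOs and by 6 in rBMSCs.

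A total of 92 genes had at least 10 counts in at least 3 libraries and entered edgeR's quasi-likelihood test. A gene was called where the Benjamini-Hochberg adjusted p over all 10607 genes tested was below 0.05 and the log2 fold change was above 2 in size. Among the 92, 37 were called higher in rEEOs (40.2%) and 25 lower (27.2%), compared to 16.3% and 13.3% of all genes tested. A further 7 were higher and 5 lower with an adjusted p below 0.05 but a smaller fold, and 18 did not reach that p. The median log2 fold change was 0.86 over the 92 genes and 0.08 over all genes tested. These counts describe the genes and do not test the group, because a gene read in 1 cell type alone enters the test only where its level there is high. In 24 of the 37 genes called higher, every rBMSCs library had 3 counts or fewer, and in 13 of the 25 called lower the same held for every rEEOs library. Such genes are described by a lower bound on the fold between group means. It is the mean CPM of the higher cell type over the largest CPM that 3 counts make in a library of the other. These 3 counts correspond to between 0.181 and 0.262 CPM and cover counting error only. The bound does not cover the spread between libraries, and single libraries of the higher cell type can give a smaller fold.

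The other 43 genes had too few counts for this test, and 34 of them had the higher mean TPM in rEEOs. The highest mean among them was 7.46 TPM, for Fxyd2 in rEEOs. With no filter on low counts edgeR called 18 of the 43 higher and 2 lower in rEEOs, and the DESeq2 Wald test called 21, each of them higher. Of all 13709 genes in these fits, edgeR called 15.81% higher and 11.45% lower, and DESeq2 15.47% and 11.33%. A gene read in 1 cell type alone can be among the 43, so these counts do not test the group.

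**Figure D1:**
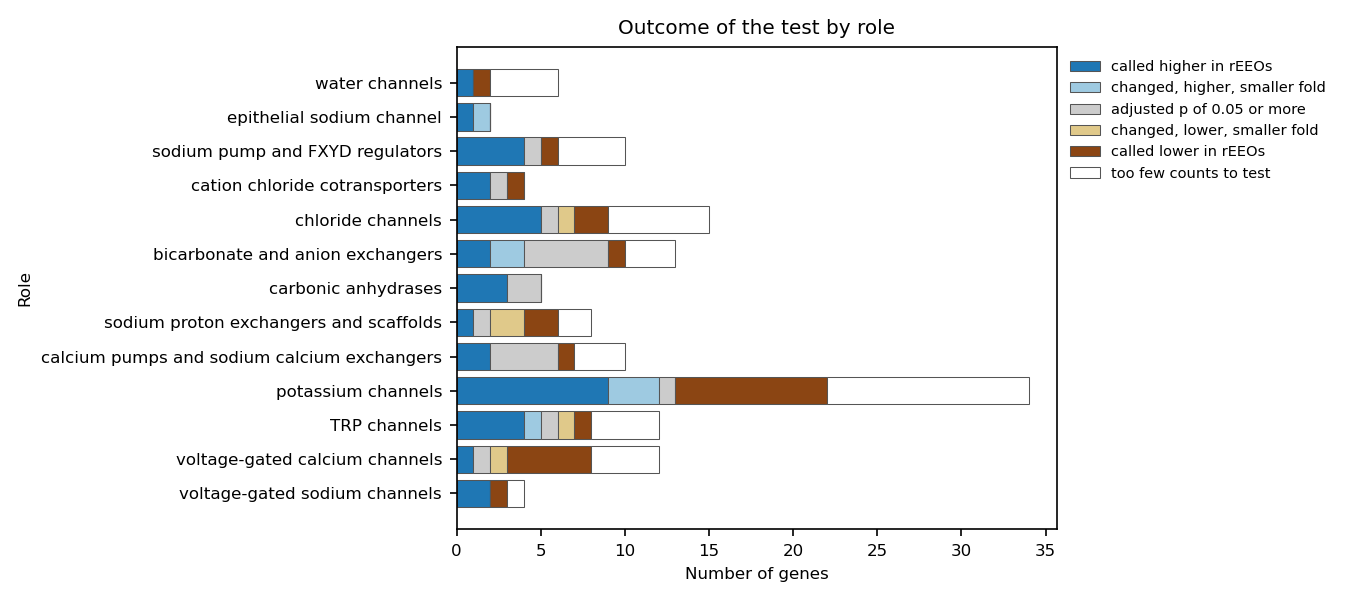
Number of ion and water transport genes in each role, with the outcome of the edgeR test of rEEOs compared to rBMSCs. With the count filter used, 9 potassium channels were called higher and 9 lower, while voltage-gated calcium channels had 1 called higher and 5 lower.

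The start regions of abundant called genes are shown because members of the same family changed in opposite directions. For the called genes with a sequence in the RefSeq promoter table (GRCr8), the 3 with the highest mean TPM in rEEOs among those called higher and the 3 with the highest in rBMSCs among those called lower are given as the 250 bases before the transcription start. Capitals mark matches, on either strand, to 5 motifs. These were TATAAA, the core of many tissue-specific promoters, then CCAAT, a site near many start points, and GGGCGG, the GC box of promoters rich in CG. They were joined by CACCTG, one form of the E-box, and by GTTAAT, a part of the site known for HNF1 factors. The first 3 sequences were of genes called higher in rEEOs.
Atp1b3, chr8:105821152-105821401, reverse strand: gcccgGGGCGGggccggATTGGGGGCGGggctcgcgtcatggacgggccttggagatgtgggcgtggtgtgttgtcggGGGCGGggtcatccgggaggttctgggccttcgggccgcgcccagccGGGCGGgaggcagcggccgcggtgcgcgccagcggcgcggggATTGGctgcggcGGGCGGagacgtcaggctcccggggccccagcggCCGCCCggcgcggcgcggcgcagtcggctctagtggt
Aqp8, chr1:187424193-187424442, forward strand: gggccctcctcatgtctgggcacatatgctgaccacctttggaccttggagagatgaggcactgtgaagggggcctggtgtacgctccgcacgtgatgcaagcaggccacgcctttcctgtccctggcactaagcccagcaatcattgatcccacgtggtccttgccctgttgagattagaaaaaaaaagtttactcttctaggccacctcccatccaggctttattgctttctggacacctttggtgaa
Slc9a3r1, chr10:100901915-100902164, forward strand: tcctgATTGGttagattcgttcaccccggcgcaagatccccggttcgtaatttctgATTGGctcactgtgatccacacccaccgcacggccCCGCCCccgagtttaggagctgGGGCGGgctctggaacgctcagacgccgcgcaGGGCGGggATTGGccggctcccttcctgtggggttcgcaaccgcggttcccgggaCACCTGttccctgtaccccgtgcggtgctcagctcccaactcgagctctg
The next 3 sequences were of genes called lower in rEEOs.
Aqp1, chr4:85812534-85812783, forward strand: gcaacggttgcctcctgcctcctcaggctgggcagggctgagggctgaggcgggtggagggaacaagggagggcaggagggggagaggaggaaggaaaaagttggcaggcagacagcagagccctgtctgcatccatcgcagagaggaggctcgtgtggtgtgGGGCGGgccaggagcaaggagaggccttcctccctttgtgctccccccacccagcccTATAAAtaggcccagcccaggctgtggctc
Fxyd1, chr1:95418581-95418830, reverse strand: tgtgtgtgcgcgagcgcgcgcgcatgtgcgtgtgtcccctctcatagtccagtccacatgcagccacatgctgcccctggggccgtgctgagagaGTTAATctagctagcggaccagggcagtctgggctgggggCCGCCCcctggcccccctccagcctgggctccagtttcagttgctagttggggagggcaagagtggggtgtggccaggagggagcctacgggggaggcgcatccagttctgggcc
Slc9a3r2, chr10:14177520-14177769, reverse strand: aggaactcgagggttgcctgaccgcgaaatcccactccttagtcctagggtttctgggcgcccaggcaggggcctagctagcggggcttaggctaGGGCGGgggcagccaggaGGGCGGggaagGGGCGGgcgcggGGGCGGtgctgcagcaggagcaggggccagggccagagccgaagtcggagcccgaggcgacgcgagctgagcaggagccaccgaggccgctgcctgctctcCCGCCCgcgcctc
Of these 6 windows only that of Aqp1 held TATAAA, whose first base lies 30 bases before the start. The Aqp8 window held none of the 5 motifs and 5 CG dinucleotides, the same number of CG as Aqp1, while Atp1b3 held 38, Slc9a3r1 23 and Slc9a3r2 22. Over the 26 genes called higher that have a sequence, GGGCGG was found in 46.2%, CACCTG in 34.6%, CCAAT in 23.1%, and TATAAA and GTTAAT in 3.85% each. Over the 20 called lower the shares were 50% for GGGCGG, 10% for CACCTG, 30% for CCAAT, 5% for TATAAA and 10% for GTTAAT. Over all 27457 promoters of this length, which are not limited to genes read here, they were 32.2%, 15.7%, 34.2%, 13.1% and 6.52%. Over the 101 transport genes with a sequence they were 48.5% for GGGCGG, 28.7% for CACCTG, 29.7% for CCAAT, 6.93% for TATAAA and 3.96% for GTTAAT. The median number of CG dinucleotides was 6 over all promoters and 12 over the transport genes with a sequence. It was 8 over those called higher and 8 over those called lower. The part of base composition in the motif shares was not tested. The CACCTG shares rest on 9 genes called higher and 2 called lower. These matches are letters in a window and not shown to be bound.

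The main water channel differed between the cell types. Aqp8, a channel for water and ammonia known from secretory epithelia, had 0, 0.09 and 0 TPM in rBMSCs, compared to 602, 288 and 52.1 TPM in rEEOs. It was at least 1191-fold higher in rEEOs (adjusted p = 0.000298). All rEEOs libraries were above all rBMSCs libraries, but the rEEOs values spanned 11.5-fold, with replicate 1 highest and replicate 3 lowest. Aqp1, a water channel of red cells, endothelium and many stromal cells, had 425, 393 and 352 TPM in rBMSCs, compared to 8.05, 0.14 and 14.8 TPM in rEEOs. It was called lower in rEEOs (log2 fold change -5.44, SE 1.26, adjusted p = 0.00935). Its rEEOs values spanned 106-fold, the widest range among the tested genes with a mean of at least 1 TPM. The endothelial markers held summed to between 0.09 and 0.34 TPM in rEEOs, and a part of endothelium or red cells in the Aqp1 level was not tested. Aqp1 made up at least 99.8% of the summed level of the 6 aquaporins in every rBMSCs library, and between 0.0484% and 20.8% in rEEOs, where Aqp8 made up between 73.3% and 99.3%. The aquaglyceroporins Aqp3 and Aqp9 and the water channel Aqp4 were at 0 TPM in every rBMSCs library and at 1.63, 1.00 and 0.32 TPM, 4.28, 0.19 and 3.25 TPM and 4.31, 0.09 and 0.25 TPM in the rEEOs libraries, with too few counts for the test. Aqp5, which the choice of symbols leaves out and which is given because it bears on these shares, had 0 TPM in each rBMSCs library, compared to 2570, 791 and 2295 TPM in rEEOs, so that Aqp8 was not the most abundant aquaporin of rEEOs.

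Of 6 sodium pump and FXYD genes tested, 4 were called higher in rEEOs and 1 lower. Atp1b1, the beta subunit typical of transporting epithelia, had 21.2, 21.4 and 20.1 TPM in rBMSCs, compared to 1441, 668 and 1042 TPM in rEEOs. It was called higher in rEEOs (log2 fold change 5.86, SE 0.25, adjusted p = 1.1e-05), and the groups did not overlap. Atp1b3, the other beta subunit among the 135 genes, had 109.8 ± 5.13 TPM in rBMSCs and 728 ± 179 TPM in rEEOs. It was also called higher (log2 fold change 2.96, SE 0.14, adjusted p = 1.54e-05). Atp1b1 made up between 15.5% and 16.4% of these 2 beta subunits in rBMSCs and between 52.8% and 61.4% in rEEOs. Further beta subunit genes were not among the 135, so the shares do not cover them. In the annotation the gene of Atp1b1 overlaps Nme7, and whether the counting used strand is not given in the sources used here. Fxyd3 was not analysed here. Of the genes described below, Cacna1c, Cacnb3, Kcnip1, Kcnk2, Kcnk6, Slc26a6, Slc26a10, Trpv2 and Trpv3 also overlap a protein-coding gene.

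FXYD proteins are small membrane proteins that adjust the pump. Fxyd1 (phospholemman), known from heart and muscle, had 95.0, 116 and 107 TPM in rBMSCs, compared to 0 TPM in all 3 rEEOs libraries and was at least 71.9-fold lower in rEEOs (adjusted p = 0.000116). Fxyd4, known from the kidney collecting duct and colon as a corticosteroid-induced regulator, had 0 TPM in each rBMSCs library, compared to 29.1, 121 and 170.3 TPM in rEEOs and was at least 275-fold higher in rEEOs (adjusted p = 0.00418). It was lowest in replicate 1, which was highest for Aqp8 and Atp1b1. Fxyd5 (dysadherin) had 105 ± 2.34 TPM in rBMSCs and 102.5 ± 44.2 TPM in rEEOs and did not pass the test (log2 fold change 0.31, SE 0.38, adjusted p = 0.5), and its sign turned on the TPM scale. Fxyd2, the kidney gamma subunit, had 0 TPM in every rBMSCs library and 0, 1.72 and 20.6 TPM in the rEEOs libraries, so that 1 library carried most of its signal.

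**Figure D2:**
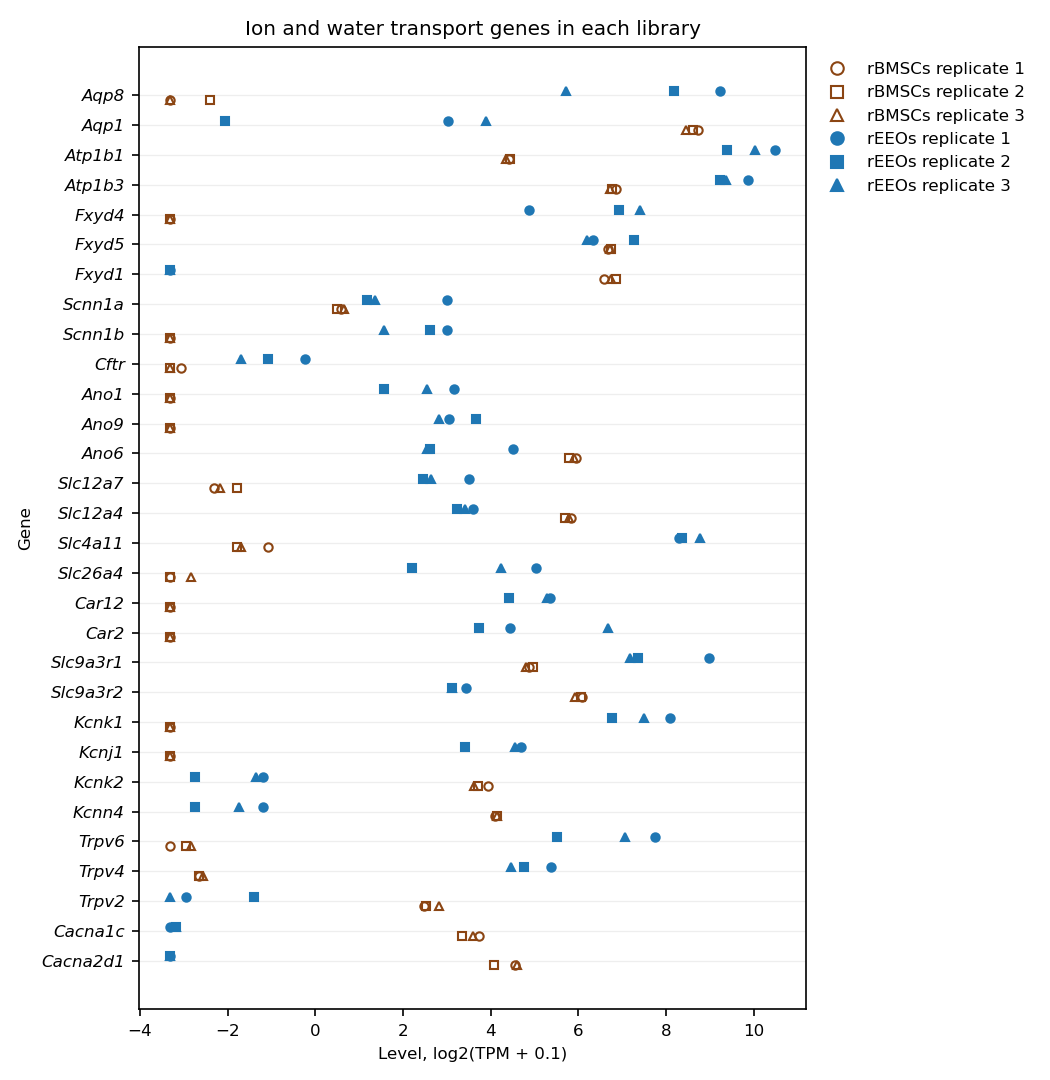
Level of ion and water transport genes in each library as log2(TPM + 0.1), with open symbols for rBMSCs and filled symbols for rEEOs, 1 shape per replicate. Genes at the left edge have 0 TPM; the rEEOs values of Aqp1 and Aqp8 are more spread than any set of rBMSCs values.

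ENaC, the sodium entry channel of absorbing epithelia, was represented by its alpha and beta subunits. Scnn1b had 0 TPM in each rBMSCs library, compared to 7.86, 5.98 and 2.87 TPM in rEEOs and was at least 45.9-fold higher in rEEOs (adjusted p = 0.00069). Scnn1a had 1.39, 1.31 and 1.48 TPM in rBMSCs, compared to 7.95, 2.17 and 2.45 TPM in rEEOs. The groups did not overlap, and the difference passed the adjusted p but not the fold threshold (log2 fold change 1.72, SE 0.42, adjusted p = 0.0113). With limma on log2(TPM + 1) or log2(TPM + 0.1) it missed the adjusted p as well (0.0837 and 0.0697). The gamma subunit Scnn1g was not analysed here.

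Regulators of these transporters were described with a list of 43 genes, of which 37 were held and 32 tested. Of these, 16 were called higher in rEEOs and 5 lower, compared to 16.3% and 13.3% of all genes tested, so the part called lower was near that of all genes. A further 4 were higher and 3 lower at a smaller fold, and 4 did not reach the adjusted p. Several of those higher are proteases and inhibitors that act on ENaC. Tmprss4, a membrane serine protease that can cleave ENaC, had 596, 686 and 648 TPM in the rEEOs libraries and was at least 5315-fold higher in rEEOs (adjusted p = 7.91e-06). Spint1, an inhibitor of such proteases, had 289.9, 268 and 302 TPM and was at least 2344-fold higher in rEEOs (adjusted p = 6.85e-06). Grhl2, a transcription factor of epithelial cells, had 30.6, 13.4 and 13.4 TPM and was at least 356.5-fold higher in rEEOs (adjusted p = 0.000127). Picked after its values were seen, Prss8 (prostasin), which also cleaves ENaC, had 199, 105 and 137.5 TPM and was at least 1133-fold higher in rEEOs (adjusted p = 1.39e-05). Also picked after their values were seen were Sgk1, the kinase that raises ENaC at the membrane, with 41.5, 42.2 and 44.4 TPM in rBMSCs and 219.9, 254.5 and 193 TPM in rEEOs (log2 fold change 2.65, SE 0.22, adjusted p = 0.000121), and Nedd4l, the ligase that removes it, with 6.22 ± 0.609 TPM in rBMSCs and 42.9 ± 18.9 TPM in rEEOs (log2 fold change 2.97, SE 0.23, adjusted p = 9.12e-05), so that a pair with opposite known actions were both higher. Of the 5 called lower, 3 were the mineralocorticoid receptor Nr3c2, with 2.84 ± 0.407 TPM in rBMSCs and 0.0433 ± 0.0451 TPM in rEEOs (log2 fold change -5.80, SE 0.63, adjusted p = 0.000365), the chloride channel family gene Ttyh2, with 16.5 ± 0.305 TPM in rBMSCs and 1.14 ± 1.42 TPM in rEEOs (log2 fold change -3.76, SE 0.73, adjusted p = 0.00451), and the glucocorticoid-induced gene Tsc22d3, with 76.2 ± 1.42 TPM in rBMSCs and 10.9 ± 2.06 TPM in rEEOs (log2 fold change -2.50, SE 0.27, adjusted p = 0.000365).

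The chloride channel class was set by symbol alone, so not every gene in it need be a chloride channel. Of its 9 genes tested, 5 were called higher in rEEOs and 2 lower, and the 5 were at 3 counts or fewer in each rBMSCs library. Ano1, the calcium-activated chloride channel of secretory epithelia, had 8.87, 2.84 and 5.70 TPM in the rEEOs libraries and was at least 97.1-fold higher in rEEOs (adjusted p = 0.000392). Ano9 had 8.17, 12.6 and 6.91 TPM and was at least 103-fold higher in rEEOs (adjusted p = 0.000521). Cftr, the cAMP-activated chloride and bicarbonate channel, was called higher (adjusted p = 0.000941, at least 10.4-fold) at a level of 0.75, 0.37 and 0.21 TPM in the rEEOs libraries, below that of Ano1 in every library. Ano6, a phospholipid scramblase and ion channel, had 61.6, 54.9 and 59.7 TPM in rBMSCs, compared to 22.6, 6.01 and 5.78 TPM in rEEOs and was called lower (log2 fold change -2.25, SE 0.43, adjusted p = 0.00436). Ano10 was lower at a smaller fold (log2 fold change -0.77, SE 0.15, adjusted p = 0.00447), with an adjusted p of 0.0869 when scaled by library size only, and Clcn4, of low level in rBMSCs at 0.5, 0.72 and 0.57 TPM, was at 0 in rEEOs, at least 7.71-fold lower in rEEOs (adjusted p = 0.000876). Ano6 without rEEOs replicate 2 or replicate 3 fell below the fold threshold, with log2 fold changes of -1.99 and -1.98.

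The 4 cation chloride cotransporters held here carry potassium and chloride out of cells and set cell volume, and 2 were called higher in rEEOs and 1 lower. Slc12a4 (KCC1), the widely expressed member, had 56.5, 51.9 and 55.4 TPM in rBMSCs, compared to 12.0, 9.34 and 10.6 TPM in rEEOs and was called lower in rEEOs (log2 fold change -2.11, SE 0.13, adjusted p = 3.28e-05). Slc12a7 (KCC4) had 0.1, 0.19 and 0.12 TPM in rBMSCs, compared to 11.2, 5.42 and 6.09 TPM in rEEOs and was called higher (log2 fold change 5.97, SE 0.33, adjusted p = 2.34e-05). Slc12a7 made up between 0.154% and 0.323% of the summed level of the 4 potassium chloride cotransporters in rBMSCs and between 31.0% and 37.5% in rEEOs, where Slc12a4 still held between 40.1% and 56.7%. Slc12a5 was called higher at a low level (0.113 ± 0.0404 TPM in rBMSCs and 0.58 ± 0.37 TPM in rEEOs; log2 fold change 2.62, SE 0.62, adjusted p = 0.01), and without rEEOs replicate 3 its log2 fold change was 1.86. Slc12a2, the sodium potassium chloride cotransporter, was not analysed here.

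Of 10 bicarbonate and anion exchanger genes tested, 2 were called higher in rEEOs and 1 lower, and 5 did not reach the adjusted p. This class too was set by symbol alone, so not every gene in it need carry bicarbonate. The most abundant in rEEOs was Slc4a11, a membrane transporter known from the corneal endothelium. It had 0.37, 0.19 and 0.21 TPM in rBMSCs, compared to 312, 329.6 and 433.5 TPM in rEEOs. It was called higher in rEEOs (log2 fold change 10.70, SE 0.44, adjusted p = 1.07e-05), with rEEOs values that agreed within 1.39-fold. Slc26a4 (pendrin), a chloride, bicarbonate and iodide exchanger, had 32.6, 4.48 and 18.7 TPM in the rEEOs libraries and was at least 194-fold higher in rEEOs (adjusted p = 0.000285). Slc26a10 was called lower (4.79 ± 0.66 TPM in rBMSCs and 0.0467 ± 0.0416 TPM in rEEOs; log2 fold change -6.21, SE 0.70, adjusted p = 0.000421), and its gene overlaps B4galnt1. Slc26a6, another apical anion exchanger, was higher at a smaller fold (4.60 ± 0.35 TPM in rBMSCs and 6.86 ± 0.726 TPM in rEEOs; log2 fold change 0.97, SE 0.29, adjusted p = 0.0266), which was lost without any rBMSCs library (adjusted p between 0.0711 and 0.09) and without rEEOs replicate 2 or 3 (0.0643 and 0.0852). The widely expressed exchanger Slc4a2 had 72.4 ± 3.48 TPM in rBMSCs and 64.5 ± 28.3 TPM in rEEOs and did not pass the test (log2 fold change 0.04, SE 0.20, adjusted p = 0.876), with a sign that turned on the TPM scale, nor did the sodium bicarbonate cotransporter Slc4a7 (6.98 ± 0.967 TPM in rBMSCs and 9.01 ± 6.15 TPM in rEEOs; log2 fold change 0.55, SE 0.33, adjusted p = 0.18). Slc4a4, the electrogenic sodium bicarbonate cotransporter, had 5.53, 2.99 and 4.89 TPM in rBMSCs, compared to 3.58, 0.06 and 0.26 TPM in rEEOs and did not pass the test (log2 fold change -1.89, SE 1.01, adjusted p = 0.141). Its replicate 1 was in the range of rBMSCs and the other 2 rEEOs libraries were not, and without replicate 1 it was called lower, with a log2 fold change of -4.05.

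Carbonic anhydrases make bicarbonate, and 3 of 5 were called higher in rEEOs. Car12, a membrane enzyme facing outward, had 0 TPM in each rBMSCs library, compared to 40.6, 21.2 and 39.0 TPM in rEEOs and was at least 365-fold higher in rEEOs (adjusted p = 0.000121). Car2, the abundant cytosolic enzyme, had 0 TPM in each rBMSCs library, compared to 21.5, 13.1 and 102 TPM in rEEOs and was at least 229-fold higher in rEEOs (adjusted p = 0.00645), with replicate 3 far above the others. Car14, another membrane enzyme, was called higher at a lower level (0.307 ± 0.117 TPM in rBMSCs and 2.49 ± 0.34 TPM in rEEOs; log2 fold change 3.23, SE 0.42, adjusted p = 0.000789). Car11, which lacks the enzyme activity, had 8.08 ± 0.245 TPM in rBMSCs and 12.0 ± 11.5 TPM in rEEOs and did not pass the test (log2 fold change 1.00, SE 0.91, adjusted p = 0.366). Without rEEOs replicate 1 its log2 fold change was 1.557 (adjusted p = 0.00823), and without replicate 2 it was -0.119.

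Of 6 sodium proton exchanger and scaffold genes tested, 1 was called higher in rEEOs and 2 lower. Both scaffolds were among them, PDZ proteins that hold CFTR and the exchangers at the membrane. Slc9a3r1 (Nherf1) had 29.1, 31.2 and 27.8 TPM in rBMSCs, compared to 502, 163 and 145 TPM in rEEOs and was called higher (log2 fold change 3.34, SE 0.39, adjusted p = 0.000503). Slc9a3r2 (Nherf2) had 67.7, 66.5 and 60.7 TPM in rBMSCs, compared to 10.7, 8.60 and 8.64 TPM in rEEOs and was called lower (log2 fold change -2.56, SE 0.14, adjusted p = 2.27e-05). Nherf1 made up between 30.1% and 32.0% of the pair in rBMSCs and between 94.4% and 97.9% in rEEOs. Slc9a9, an endosomal exchanger, was called lower (6.98 ± 0.279 TPM in rBMSCs and 0.0733 ± 0.0874 TPM in rEEOs; log2 fold change -6.32, SE 0.64, adjusted p = 0.000263). Slc9a2, an apical exchanger, had 0 TPM in each rBMSCs library and 0.13, 0.63 and 0.06 TPM in the rEEOs libraries, too few counts for the test, and Slc9a3 was not analysed here.

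Of 8 TRP channel genes tested, 4 were called higher in rEEOs and 1 lower, and the leading TRPV channel differed. Trpv6, the apical calcium channel of epithelia, had 0, 0.03 and 0.04 TPM in rBMSCs, compared to 214, 45.8 and 134 TPM in rEEOs and was at least 1336-fold higher in rEEOs (adjusted p = 4.76e-05). Trpv4, a channel opened by swelling and shear, had 0.06, 0.06 and 0.07 TPM in rBMSCs, compared to 41.6, 27.0 and 21.9 TPM in rEEOs and was at least 357-fold higher in rEEOs (adjusted p = 4.59e-06). Trpv2 had 5.50, 5.66 and 7.00 TPM in rBMSCs, compared to 0.03, 0.28 and 0 TPM in rEEOs and was called lower (log2 fold change -5.49, SE 0.92, adjusted p = 0.00237). Trpv2 made up between 98.4% and 98.9% of the summed TRPV level in rBMSCs and at most 0.381% in rEEOs, where Trpv6 made up between 62.4% and 85.5%. Trpv3 was at least 5.24-fold higher in rEEOs (adjusted p = 0.00268) at a very low level, with 0.18, 0.2 and 0.34 TPM in rEEOs. The calcium-activated sodium channel Trpm4 was higher at a smaller fold (7.97 ± 0.601 TPM in rBMSCs and 13.5 ± 4.96 TPM in rEEOs; log2 fold change 1.04, SE 0.33, adjusted p = 0.0305), and without each rBMSCs library in turn its adjusted p was between 0.076 and 0.0968. The magnesium channel Trpm7 was lower at a smaller fold (23.7 ± 2.78 TPM in rBMSCs and 11.3 ± 4.00 TPM in rEEOs; log2 fold change -0.86, SE 0.15, adjusted p = 0.00313).

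Of 7 calcium pump and exchanger genes tested, 2 were called higher in rEEOs and 1 lower, and 4 did not reach the adjusted p. Atp2b4, a pump of the plasma membrane, was the one called lower (15.5 ± 2.68 TPM in rBMSCs and 0.07 ± 0.052 TPM in rEEOs; log2 fold change -7.47, SE 0.50, adjusted p = 4.73e-05). Atp2b1 made up between 91.4% and 92.6% of the plasma membrane pumps in rEEOs, compared to between 59.4% and 62.4% in rBMSCs. Atp2c2, the pump of the secretory pathway known from glands, had 6.52, 6.51 and 2.08 TPM in rEEOs and was at least 58.3-fold higher in rEEOs (adjusted p = 0.00132), and Atp2b3 was at least 17.3-fold higher in rEEOs (adjusted p = 0.00122). Atp2a2 (SERCA2) was the most abundant calcium pump in both cell types. It had 138, 123 and 137 TPM in rBMSCs, compared to 229.6, 63.9 and 74.0 TPM in rEEOs and did not pass the test (log2 fold change 0.01, SE 0.36, adjusted p = 0.977). Its replicate 1 was above all rBMSCs libraries and the other 2 rEEOs libraries were below them, and without replicate 1 its log2 fold change was -0.512 (adjusted p = 0.00297).

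Potassium channels hold the membrane potential that drives anion exit, and of 22 genes tested 9 were called higher in rEEOs and 9 lower. The split was uneven where 1 count in any library was enough, with 14 higher and 9 lower. It stayed even, at 5 and 5, where 50 counts in 3 libraries were asked for. Kcnk1 (TWIK-1), a potassium leak channel of the K2P family, had 0 TPM in each rBMSCs library, compared to 272, 108 and 181 TPM in rEEOs and was at least 1662-fold higher in rEEOs (adjusted p = 7.08e-05). Kcnj1 (ROMK), the secretory potassium channel of the kidney, had 0 TPM in each rBMSCs library, compared to 25.6, 10.6 and 23.3 TPM in rEEOs and was at least 241-fold higher in rEEOs (adjusted p = 0.00019). Among those lower in rEEOs was an auxiliary subunit. Kcnip1, which binds voltage-gated channels, had 37.8, 42.4 and 40.9 TPM in rBMSCs, compared to 0 TPM in all 3 rEEOs libraries and was at least 143-fold lower in rEEOs (adjusted p = 4.36e-05), and its gene overlaps Kcnmb1. Kcnn4, a calcium-activated potassium channel, had 16.9, 17.5 and 17.6 TPM in rBMSCs, compared to 0.34, 0.05 and 0.2 TPM in rEEOs and was called lower (log2 fold change -6.24, SE 0.41, adjusted p = 4.48e-05). Kcnq5 was at least 83.2-fold lower in rEEOs (adjusted p = 3.86e-05) and Kcnj8, part of the ATP-sensitive channel, at least 10.8-fold lower in rEEOs (adjusted p = 0.000608). Kcne3, a beta subunit, had 7.81, 0 and 0.84 TPM in rEEOs, with 1 library carrying it, and was not tested, and Kcnq1 was not analysed here. Kcnk1 made up between 75.8% and 85.6% of the K2P channels in rEEOs and 0% in rBMSCs, where Kcnk2 made up between 49.6% and 59.4% and Kcnk6 between 40.4% and 49.8%, with Kcnk6 slightly ahead in replicate 2. Kcnj1 made up between 80.9% and 91.1% of the inward rectifiers in rEEOs and Kcnj8 between 56.1% and 72.0% in rBMSCs.

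**Figure D3:**
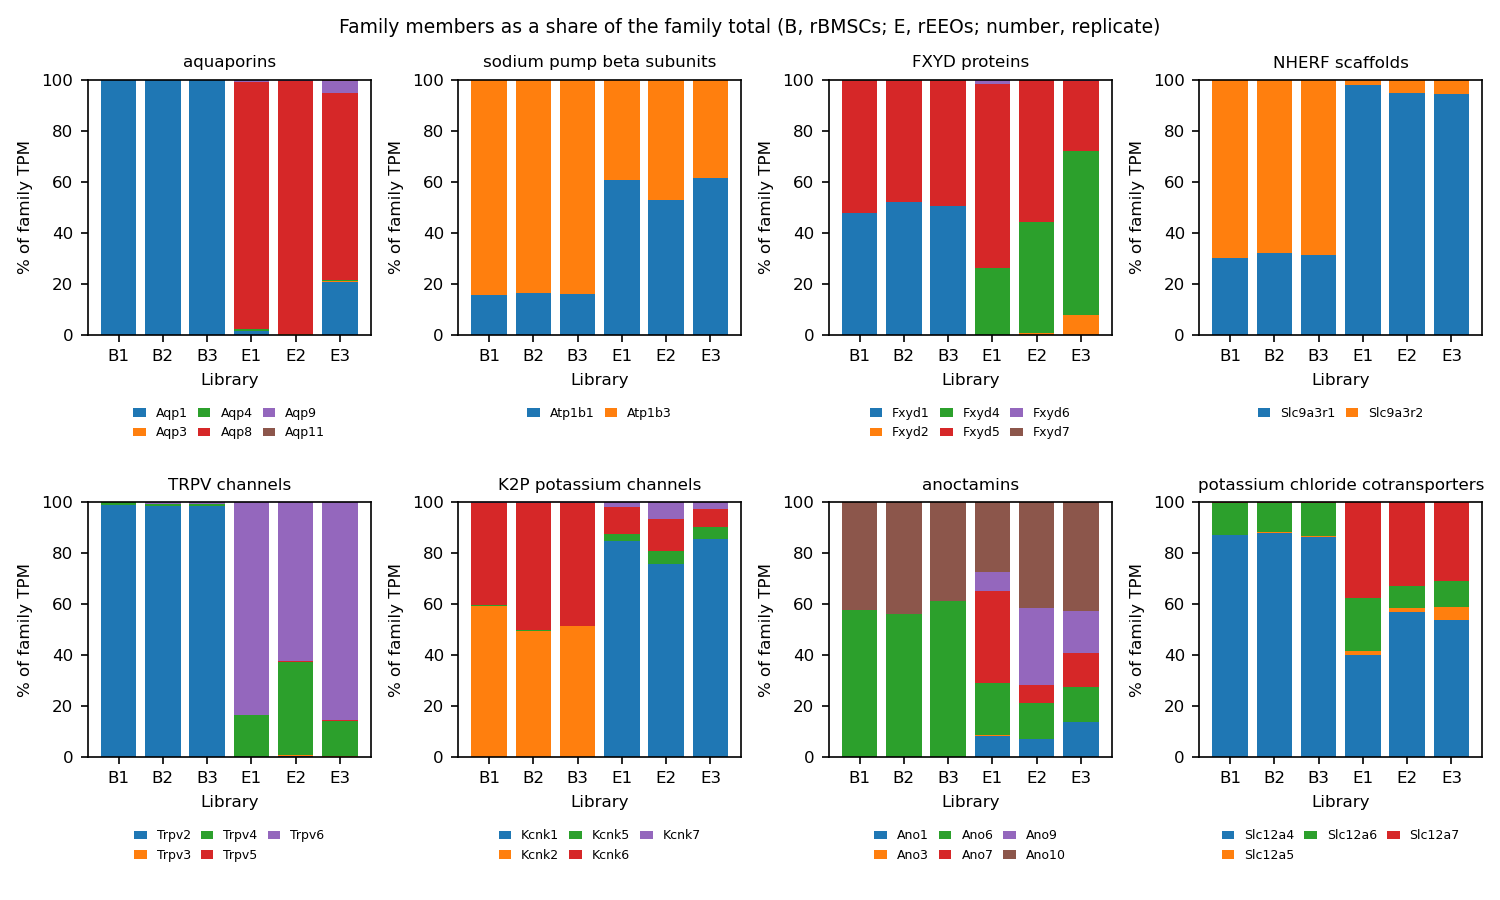
Each gene as a percentage of its family's summed TPM in each library (B, rBMSCs; E, rEEOs; the number is the replicate), for 8 families, over the genes held here and without Aqp5. The leading gene differs between the cell types in all panels except the potassium chloride cotransporters, where Slc12a4 leads in every library, and the FXYD proteins, where Fxyd5 leads some libraries of each. The lead varies between the rBMSCs libraries for K2P channels (Kcnk2 or Kcnk6) and between the rEEOs libraries for anoctamins (Ano7 or Ano10).

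Of 8 voltage-gated calcium channel genes tested, 5 were called lower in rEEOs and 1 higher, and of 3 sodium channel genes 1 was called lower and 2 higher. Both kinds of channel are typical of excitable cells. Cacna1c, the pore of the L-type calcium channel, had 13.2, 10.1 and 12.0 TPM in rBMSCs, compared to 0, 0.01 and 0.01 TPM in rEEOs and was at least 386.5-fold lower in rEEOs (adjusted p = 8.32e-06). Cacna2d1, its auxiliary subunit, had 23.5, 16.6 and 24.2 TPM in rBMSCs, compared to 0 TPM in all 3 rEEOs libraries and was at least 338-fold lower in rEEOs (adjusted p = 3.52e-05). Cacna1g, a T-type channel, was at least 21.6-fold lower in rEEOs (adjusted p = 0.000377). The smooth muscle markers moved with these genes, as with Fxyd1 and Kcnip1, with the sums given above and Acta2 at 5584, 6332 and 6270 TPM in rBMSCs, and their part in these differences was not tested. Cacna1d was at least 9.16-fold higher in rEEOs (adjusted p = 0.00219) at a mean of 0.227 TPM. The beta subunit Cacnb3 had 20.6 ± 1.54 TPM in rBMSCs and 18.2 ± 1.02 TPM in rEEOs and did not pass the test (log2 fold change 0.11, SE 0.20, adjusted p = 0.633), and its sign turned on the TPM scale. The sodium channel pores Scn3a and Scn4a were called higher at means of 1.36 and 0.79 TPM in rEEOs (adjusted p = 0.000243 and adjusted p = 0.00142). Scn3a and Kcnk6 are among 6 transport genes with a deposited count that is not exactly whole in at least 1 library, which RSEM can give where it divides reads, so their counts are less certain.

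**Figure D4:**
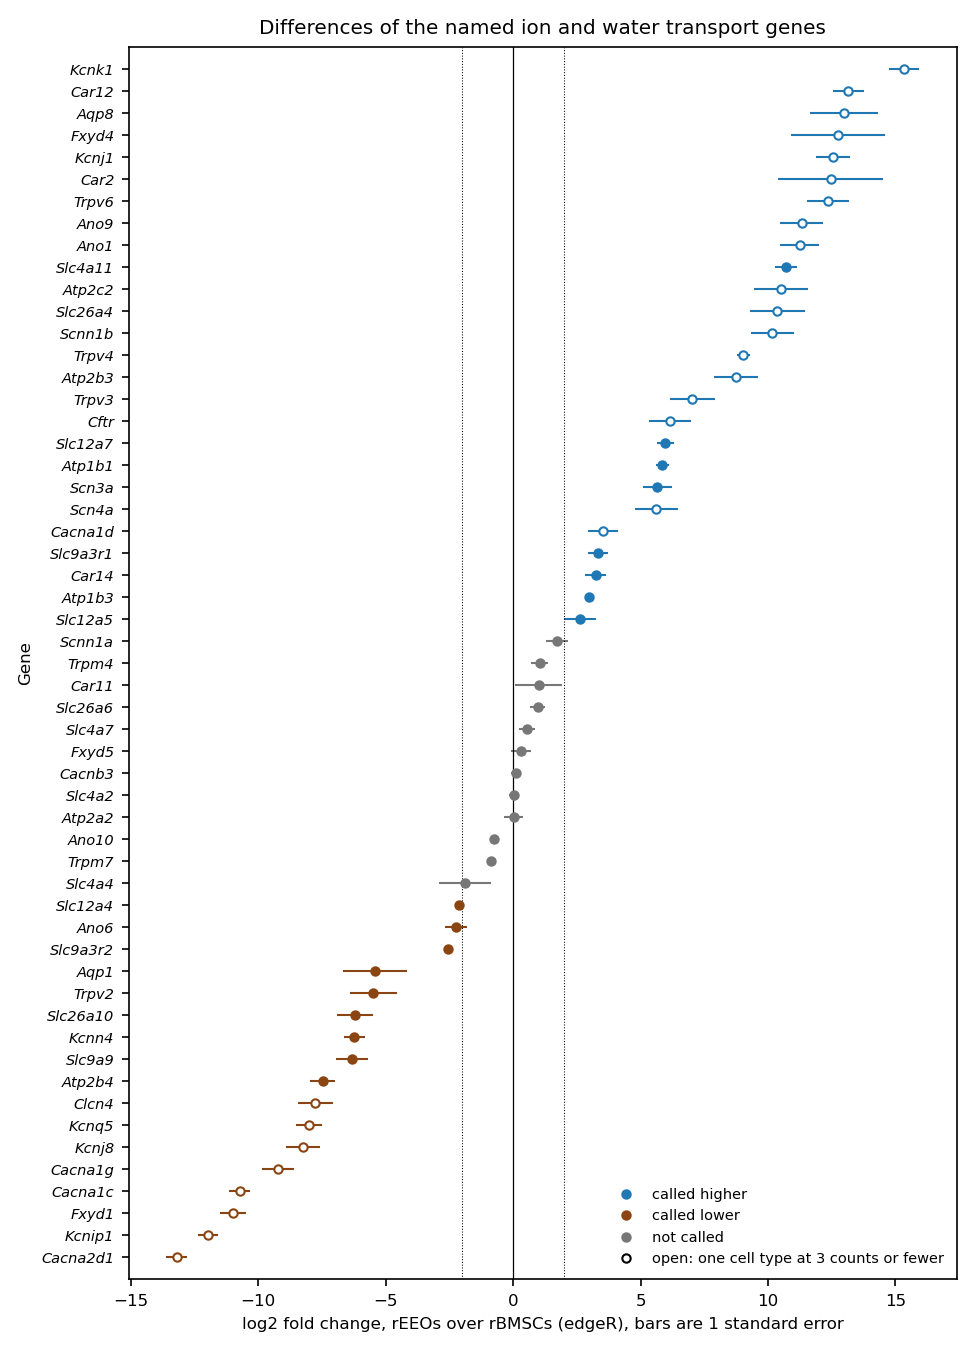
Log2 fold change of named ion and water transport genes that were tested, rEEOs over rBMSCs. Bars are 1 standard error from edgeR, and dotted lines mark the log2 fold change threshold of 2 in either direction. Open symbols mark genes with 3 counts or fewer in every library of 1 cell type, for which the fitted value is no bound; the values run from Kcnk1 at 15.34 to Cacna2d1 at -13.21.

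The rEEOs libraries differed more from each other than the rBMSCs libraries did, for transport genes and for all genes tested. On log2(CPM + 1) the median SD over the 92 genes was 0.407 in rEEOs and 0.0941 in rBMSCs. Over all 10607 genes tested it was 0.34 in rEEOs and 0.0877 in rBMSCs. Of 62 tested genes with a mean of at least 1 TPM in rEEOs, 26 differed by over 3-fold between the highest and the lowest rEEOs library, and 20 of these were highest in replicate 1. The median ratio of highest to lowest was 2.45 in rEEOs and 1.17 over the 53 genes of that level in rBMSCs, where 0 differed by over 3-fold. Aqp1, Slc4a4, Car11, Ano7 and Aqp8 had the widest ranges, from 106-fold down to 11.5-fold. Replicate 1 was the highest rEEOs library for 53.3% of the 92 tested genes, compared to 43.8% of all genes tested, and it also had the largest library. Without it, 37 genes were called higher and 26 lower. The part of library size in this spread was not tested.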

How the data were processed

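The authors trimmed reads with Trim Galore, aligned them with Bowtie2 2.2.5 to Rnor_6.0 and estimated expression with RSEM 1.3.1. The deposited table holds per gene and library the expected count, which RSEM need not give as a whole number, and TPM. The copy analysed here holds 13728 genes whose TPM summed to between 81.3% and 82.7% of a library's full TPM total. Deposited TPM were used as levels. Columns of means and of FPKM were not used.

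Expected counts were rounded and tested with edgeR 4.0.16 (TMM, glmQLFit, glmQLFTest) in R 4.3.3 over all 6 libraries with cell type as the only term, for 10607 genes that reached 10 counts in at least 3 libraries. Standard errors are the log2 fold change divided by the square root of F. Alternatives were DESeq2 1.42.0, limma 3.58.1 on log2(TPM + 1) or log2(TPM + 0.1), other normalizations, filters and thresholds, a replicate block, and leaving out each library. With 3 libraries against 3, an exact permutation test cannot give p under 0.1, so none was used.

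All 135 genes matched RefSeq by gene ID. The genes and lists were chosen with earlier results of these data known. Within each role the 3 called genes with the largest fold in each direction, the most abundant gene in each cell type and a list of known epithelial transporters were named. The promoters printed were extended, after a first look, from the 3 most abundant called genes each way to the 3 with a sequence. Of the transport genes, 21 overlap a protein-coding gene in GRCr8. The values of some genes are not given here, though they are part of the counts.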

Additional observations from a re-analysis of the deposited data

How the results depend on the processing

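Over 14 alternative fits, 47 of the 53 called genes that the naming rule takes remained called with the same sign wherever they were tested. The other 6 were lost somewhere. Ano6 and Slc12a4 missed the fold threshold with library size only, Ano6 also without rEEOs replicate 2 or 3, Slc12a5 without rEEOs replicate 3, and Car14, Kcnj8 and Nr3c2 with limma on log2(TPM + 1). Of the 13 it takes that were not called, Scnn1a was called with library size only, and Slc4a4 with a replicate block and without rEEOs replicate 1. The adjusted p was lost under alternatives for genes that include Ano10, Scnn1a, Slc26a6 and Trpm4, and gained without rEEOs replicate 1 for Atp2a2 and Car11. The DESeq2 Wald test, which tested all 135 transport genes, called 58 higher and 25 lower. Of its calls 69.9% were higher, compared to 59.7% in the reported fit. Calls over all genes also leaned higher, with 2121 higher and 1553 lower in DESeq2 and 1733 and 1412 in the reported fit. DESeq2 called 14 potassium channels higher and 9 lower. With limma on log2(TPM + 1), which tested 74 of them, 24 were called higher and 16 lower, and 2 regulators were called lower. At an absolute log2 fold change above 1, 8 regulators were called lower. Leaving out each library gave between 36 and 37 transport genes called higher, between 24 and 26 lower, between 16 and 17 regulators higher and 5 lower. Library size only moved the median log2 fold change of all genes from 0.08 to 0.46, and limma moved it to -0.22 or -0.24.

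The sign turned for 5 genes that did not pass the test. With limma on log2(TPM + 1) and log2(TPM + 0.1) the log2 fold changes were -0.363 and -0.367 for Atp2a2, -0.166 and -0.174 for Cacnb3, -0.018 and -0.134 for Car11, -0.109 and -0.111 for Fxyd5, and -0.251 and -0.256 for Slc4a2. Leaving out each library, they ranged from -0.512 to 0.274 for Atp2a2, -0.007 to 0.294 for Cacnb3, -0.119 to 1.557 for Car11, -0.231 to 0.591 for Fxyd5, and -0.117 to 0.237 for Slc4a2.

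Samples of the same replicate number deviated together with correlations of 0.17, 0.19 and -0.17, so the numbers were not taken to pair the samples. The replicate block gave 37 transport genes called higher and 26 lower, 16 regulators higher and 5 lower, and a log2 fold change of -0.122 for Atp2a2. Genes near 3 counts per library, and small differences between the spread rEEOs libraries, are limited by depth and by 3 samples. The cause of these changes was not tested.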
